A study of Mus musculus with 6 samples.

Results

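The Dlk1-Meg3 (Dlk1-Dio3) imprinted cluster of mouse chromosome 12 was followed through its long transcripts in mouse iPSCs, fibroblasts reprogrammed to induced pluripotent stem cells. The members known as expressed from the paternal chromosome were Dlk1, Rtl1 and Dio3. Those known as expressed from the maternal chromosome were Meg3, Rian and Mirg, and Begain flanks the cluster. Paternal and maternal name this known imprint, since the parental copy expressed in these cells was not measured. The members were chosen by gene symbol. A probe set had to carry a single symbol, and the brightest was used where a gene has several. Of the 7 genes, 6 had such a probe set, out of 19938 genes tested. Each of the 6 had exactly 1, so brightness decided no choice. Mirg had no probe set of its own, since the only probe set listing it also lists a microRNA gene. Total RNA had been hybridised to 6 Affymetrix mouse gene arrays. The primed group held 3 arrays of cells grown in medium conditioned by embryonic fibroblasts with basic FGF at 8 ng/ml. The naive group held 3 arrays of cells grown in 15% fetal bovine serum with leukaemia inhibitory factor (LIF) at 1000 U/ml. The titles give adult dermal fibroblasts as the origin of the primed cells and embryonic fibroblasts as that of the naive cells, whereas another label gives embryonic fibroblasts for all 6. If the titles hold, the effect of culture state and that of origin cannot be told apart. The labels place feeder cells or matrigel under the primed cultures without saying which array had which.

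In this cluster a control region between Dlk1 and Meg3 carries DNA methylation on the paternal chromosome only. The unmethylated maternal copy allows transcription of Meg3, Rian and Mirg, noncoding RNAs that are thought to form a nearly continuous transcription unit and that hold many snoRNAs and microRNAs. The methylated paternal copy goes with transcription of the protein-coding genes Dlk1, Rtl1 and Dio3. In mouse iPSCs the cluster is known because silencing of its maternal RNAs has marked lines that contribute poorly to chimaeric mice.

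The start regions of Dlk1, Meg3, Rian and Dio3 are shown first. Meg3 and Rian are both maternal RNAs, but their annotated starts lie in unlike sequence. Whether transcription begins at these starts in these cells was not tested. The regions are RefSeq windows of build GRCm38.p6, from 250 bases before to 50 after an annotated start, written 5′ to 3′. A window was in the table for 6 of the 7 genes, all but Rtl1. Meg3 had 2, of which the window of its upstream start is printed. Capitals mark matches, on either strand, to the cAMP response element TGACGTCA, the TATA motif TATAAA and TGCCGC, the hexamer bound by the imprint-protecting zinc finger protein ZFP57.
Dlk1 (chr12:109452573-109452872, plus strand): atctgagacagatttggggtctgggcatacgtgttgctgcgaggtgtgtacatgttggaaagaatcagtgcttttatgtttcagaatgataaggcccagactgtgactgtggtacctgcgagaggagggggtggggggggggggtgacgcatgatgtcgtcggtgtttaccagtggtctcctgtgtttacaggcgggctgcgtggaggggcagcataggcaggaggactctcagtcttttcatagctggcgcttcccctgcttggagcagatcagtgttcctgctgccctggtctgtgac
Meg3 (chr12:109540746-109541045, plus strand): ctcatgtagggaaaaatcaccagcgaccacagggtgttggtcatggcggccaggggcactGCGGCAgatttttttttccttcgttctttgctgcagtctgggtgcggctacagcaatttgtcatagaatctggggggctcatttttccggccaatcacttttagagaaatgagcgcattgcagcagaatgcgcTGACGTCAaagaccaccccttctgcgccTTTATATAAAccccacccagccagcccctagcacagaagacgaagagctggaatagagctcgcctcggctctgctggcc
Rian (chr12:109603695-109603994, plus strand): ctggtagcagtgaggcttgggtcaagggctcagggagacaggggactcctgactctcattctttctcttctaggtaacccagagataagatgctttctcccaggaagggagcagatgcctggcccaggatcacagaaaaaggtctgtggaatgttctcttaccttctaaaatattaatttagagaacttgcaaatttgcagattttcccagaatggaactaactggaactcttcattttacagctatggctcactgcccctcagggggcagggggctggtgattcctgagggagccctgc
Dio3 (chr12:110278980-110279279, plus strand): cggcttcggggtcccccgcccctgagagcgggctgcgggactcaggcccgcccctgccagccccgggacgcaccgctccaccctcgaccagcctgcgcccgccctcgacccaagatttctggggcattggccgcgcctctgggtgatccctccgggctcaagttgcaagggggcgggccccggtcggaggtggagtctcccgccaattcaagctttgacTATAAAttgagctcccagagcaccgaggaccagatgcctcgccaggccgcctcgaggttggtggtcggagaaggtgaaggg
The Meg3 window held a full cAMP response element whose first base lies 57 bases before the start, a sequence found in 1.79% of all 32851 windows. It also held overlapping TATAAA matches on both strands, 25 and 29 bases before the start, and a ZFP57 hexamer on the opposite strand 190 bases before it. TATAAA was found in 13.6% of all windows and the hexamer in 11.6%. The Dio3 window held TATAAA 31 bases before the start, and none of the 3 motifs was in the Dlk1 or Rian window. CpG dinucleotides numbered 9 in the Dlk1, 13 in the Meg3, 0 in the Rian and 25 in the Dio3 window, against a median of 7 over all windows. A match says only that the letters are present.

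All values are log2 values made with robust multi-array average (RMA), a method that summarises the probes of a probe set, and all differences are primed minus naive. A threshold of 0.05 on limma's p adjusted over all genes is called passing. A background cutoff was set on each array from 1190 genes of olfactory or vomeronasal receptors, at their 95th percentile, and lay between 6.96 and 7.03. Array medians over all probe sets lay between 7.77 and 7.83, and the correlation over genes was 0.998 to 0.999 between arrays of a group and 0.980 between arrays of different groups. The pluripotency genes Pou5f1, Sox2 and Nanog were well above background in both groups, with means between 11.43 and 12.59, while Zfp42, a marker of the naive state, lay in background in both. Whether the Zfp42 probe set responds in these cells was not tested, so no state is read from it. The precision of every value is limited by the 3 arrays per group. What was repeated between the arrays that the titles call biological replicates is not stated, so p-values here reflect array-to-array spread that may be technical.

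All 5 imprinted members with a probe set, Dlk1, Rtl1, Dio3, Meg3 and Rian, passed the threshold and were lower in primed cells, and Begain passed and was higher. Among all genes 22.7% passed and were lower and 21.8% passed and were higher. The differences ranged from -1.61 to 0.33 with a median of -0.51 over the 6 members, against a median of 0.00 over all genes. Dlk1 and Rian passed with a level at least 2-fold lower in primed cells, which held for 1.84% of all genes. In the 6 members no primed array overlapped the naive arrays. Groups without overlap occurred in 27.0% of all genes with primed lower and in 25.9% with primed higher. That Dlk1, Rian, Meg3 and Rtl1 were lower in primed cells was known when the genes were put together, so their p-values are a description and no independent support.

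**Figure D1:**
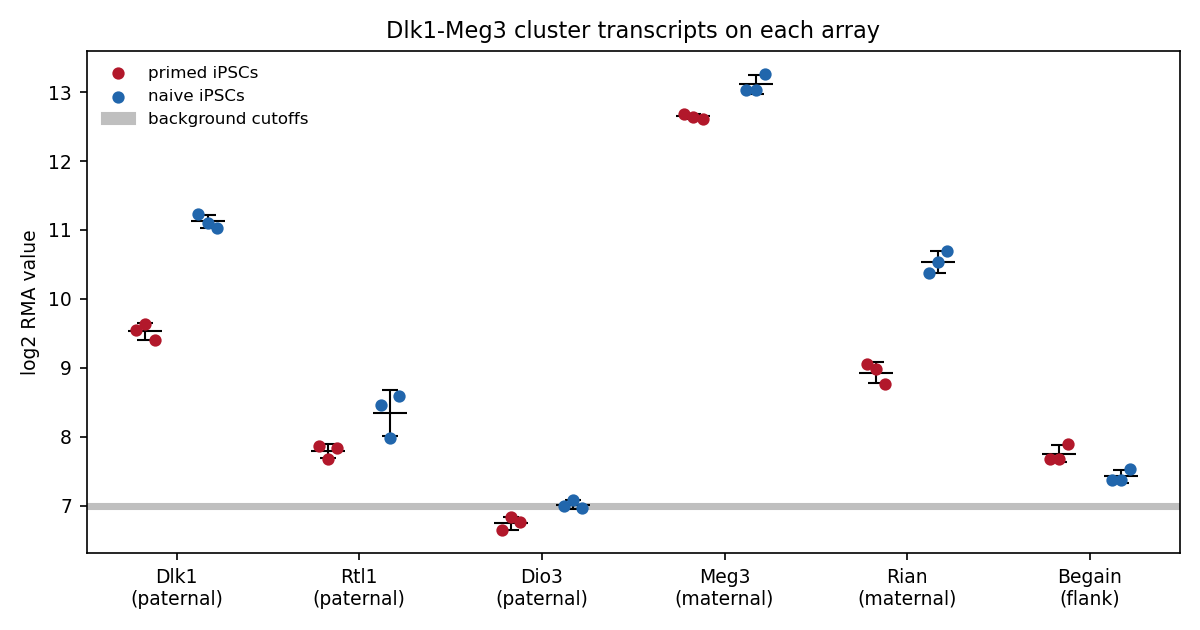
Each point is the log2 RMA value (vertical axis) of a cluster member on an array, with 3 primed arrays (red, left) and 3 naive arrays (blue, right) per gene; the bar and whiskers are the mean and SD, and the grey band spans the background cutoffs of the arrays. Dlk1, Rtl1, Dio3, Meg3 and Rian lie lower on every primed array, Begain lies higher, and Dio3 lies at the edge of background.

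Dlk1 encodes a transmembrane protein with EGF-like repeats, related to Notch ligands, that holds back the differentiation of fat cell precursors. Its values were 9.55, 9.64 and 9.40 on the primed arrays, against 11.23, 11.10 and 11.04 on the naive arrays. Every primed array was therefore more than a log2 unit below every naive array. The means were 9.53 ± 0.12 in primed and 11.12 ± 0.10 in naive cells (SD, n = 3), a difference of -1.59 (SE 0.07, limma adjusted p = 1.58e-08), or 3.02-fold lower in primed cells. Of all genes, 0.597% had a lower difference.

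Rtl1, a retrotransposon-derived gene with a role in the placenta, had values of 7.86, 7.67 and 7.84 on primed arrays, against 8.47, 7.98 and 8.60 on naive arrays. Naive replicate 2 lay close to the primed arrays, and the groups did not overlap. The means were 7.79 ± 0.10 in primed and 8.35 ± 0.33 in naive cells (SD, n = 3), a difference of -0.55 (SE 0.13, limma adjusted p = 0.00424). Naive Rtl1 had the widest spread of any member in either group. Dio3, for the deiodinase that inactivates thyroid hormone, had values of 6.64, 6.83 and 6.77 on primed arrays, against 6.99, 7.09 and 6.97 on naive arrays. All 3 primed arrays and 2 of the 3 naive arrays lay under their own background cutoff. The difference of -0.27 (SE 0.06, limma adjusted p = 0.0043) is thus one between values at or near background.

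Meg3, the first noncoding RNA on the maternal side, had values of 12.68, 12.64 and 12.61 on primed arrays, against 13.03, 13.04 and 13.27 on naive arrays. The 3 primed arrays were close together and all lay below the naive arrays. The means were 12.65 ± 0.04 in primed and 13.11 ± 0.13 in naive cells (SD, n = 3), a difference of -0.47 (SE 0.07, limma adjusted p = 0.000162), or 1.38-fold lower in primed cells. The Meg3 probe set was brighter than that of 99.2% of genes, and the highest values on the arrays lay between 14.13 and 15.02. Meg3 was not in background in either group.

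Rian, which hosts snoRNAs downstream of Meg3, had values of 9.05, 8.98 and 8.76 on primed arrays, against 10.38, 10.54 and 10.70 on naive arrays. The groups were separated by more than a log2 unit, as for Dlk1. The means were 8.93 ± 0.15 in primed and 10.54 ± 0.16 in naive cells (SD, n = 3), a difference of -1.61 (SE 0.09, limma adjusted p = 8.38e-08), or 3.05-fold lower in primed cells. Rian was above background on every array. Begain, for a protein of neuronal synapses, had values of 7.68, 7.68 and 7.90 on primed arrays, against 7.38, 7.37 and 7.53 on naive arrays. It was the only member to rise, with a difference of 0.33 (SE 0.07, limma adjusted p = 0.00303), and both groups lay a little above background.

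The paternal and maternal members were then set against each other within each array, which asks whether their differences were unequal. Probe sets differ in response, so only the change of a within-array difference between groups is read, and 10 pairs of the 5 imprinted members were compared by a two-sided exact permutation test over arrays. With 3 arrays against 3 the smallest p is 0.1, reached by 6 pairs, and their p adjusted over the 10 pairs was 0.167, so no pair can pass. The Dlk1 minus Meg3 value was -3.14, -3.003 and -3.21 on primed arrays, against -1.80, -1.93 and -2.23 on naive arrays, a change of -1.13 (SE 0.14, exact p = 0.1). Dlk1 thus lay further below Meg3 on every primed array than on any naive array. The Dlk1 minus Rian value was 0.50, 0.66 and 0.64 on primed arrays, against 0.85, 0.57 and 0.34 on naive arrays, a change of 0.01 (SE 0.16, exact p = 1). For this paternal and maternal pair the groups overlapped. Other paternal and maternal pairs went the other way from Dlk1 and Meg3. Rtl1 minus Rian changed by 1.05 (SE 0.22, exact p = 0.1) and Dio3 minus Rian by 1.34 (SE 0.16, exact p = 0.1). In both, Rian differed more than the paternal gene. Dio3 minus Meg3 changed by 0.20 (SE 0.13, exact p = 0.2).

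The maternal RNAs were also set against each other, and the paternal genes likewise. The Rian minus Meg3 value was -3.64, -3.66 and -3.85 on primed arrays, against -2.66, -2.50 and -2.57 on naive arrays, a change of -1.14 (SE 0.08, exact p = 0.1). For the paternal genes the Dlk1 minus Rtl1 value was 1.68, 1.97 and 1.56 on primed arrays, against 2.77, 3.13 and 2.44 on naive arrays, a change of -1.04 (SE 0.23, exact p = 0.1). Dlk1 minus Dio3 changed by -1.33 (SE 0.10, exact p = 0.1) and Rtl1 minus Dio3 by -0.29 (SE 0.25, exact p = 0.3). Of the paternal and maternal pairs, Rtl1 minus Meg3 changed by -0.09 (SE 0.16, exact p = 0.6), with overlapping groups. These changes describe members whose own differences were already known, and since no pair could pass they settle no order of the paternal and maternal genes. The Meg3 probe set lay high in the signal range and Dio3 at or under the background cutoff, and the part of this in their differences was not tested.

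Between Begain and Dio3 the array held 45 more probe sets annotated to a RefSeq gene, of microRNAs, snoRNAs or pairs of genes. Probe sets without such an annotation were not placed. In a fit over all 35556 probe sets, in which 17.2% passed and were lower in primed cells and 14.3% passed and were higher, all 45 passed and were lower, and in none did the groups overlap. Over all probe sets 24.6% had groups without overlap with primed lower. The 40 microRNA probe sets had differences between -2.91 and -0.24 with a median of -1.30. Their median was -0.80 over the 8 that lie from Meg3 to before Rian and -1.41 over the 32 from Rian to before Dio3. In background in both groups were 4 of the 40, and others were in background on all primed but not all naive arrays. Of the snoRNA genes downstream of the Rian start, DQ267101, with its primed arrays in background, differed by -1.38. DQ267102, with values of 13.14 to 13.31 on primed arrays and 13.45 to 13.51 on naive arrays, differed by -0.26. The 3 probe sets that list 2 genes each differed by -1.86, -1.30 and -1.25, and are assigned to no gene. The one listing Mirg, which hosts microRNAs, beside a microRNA gene had values of 10.65, 10.57 and 10.61 on primed arrays, against 11.84, 11.74 and 12.003 on naive arrays. The one listing Rian beside a snoRNA gene had values of 10.78, 10.79 and 10.55 on primed arrays, against 11.89, 12.08 and 12.03 on naive arrays. Both were lower on every primed array than on any naive array. All these probe sets share the same 6 arrays and may read parts of the same primary transcripts, so they are not independent of Meg3 and Rian or of each other.

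Rtl1 is transcribed from the strand opposite to a maternal RNA that yields microRNAs, some of which are known in mouse to direct cleavage of the Rtl1 transcript. In RefSeq 15 microRNA hairpins lie within the Rtl1 gene, 13 of them on the plus strand. The 3p mature sequences of 5 on the plus strand, chosen by name, are printed with the seed (bases 2 to 8) in capitals.
mmu-miR-431-3p (chr12:109590502-109590523, plus strand): cAGGUCGUcuugcagggcuucu
mmu-miR-433-3p (chr12:109591781-109591802, plus strand): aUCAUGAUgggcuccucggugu
mmu-miR-127-3p (chr12:109592888-109592909, plus strand): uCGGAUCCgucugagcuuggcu
mmu-miR-434-3p (chr12:109594565-109594586, plus strand): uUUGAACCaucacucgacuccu
mmu-miR-136-3p (chr12:109595366-109595387, plus strand): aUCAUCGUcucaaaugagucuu
No seed is shared among the 5. Mir127 had values of 8.68, 8.59 and 8.45 on primed arrays, against 10.38, 10.29 and 10.61 on naive arrays, a difference of -1.85 (limma adjusted p = 4.2e-05 over all probe sets). Mir431 differed by -0.51, Mir136, with its primed arrays in background, by -0.83, and Mir434, in background in both groups, by -0.94. Mir433 is listed only together with another gene. Rtl1 and those of the 5 microRNA genes with a probe set of their own thus were all lower in primed cells. A gene array reads total RNA, so these values may come from precursor RNA and are no measure of mature microRNA.

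The genes on either side of the cluster were lower in some cases and higher in others. Of the 10 nearest measured genes on each side in RefSeq gene order, 6 of 20 were lower in primed cells, 5 were higher and 9 did not pass, with a median of -0.02 and a range of -0.44 to 0.63. Over all genes 22.7% were lower and 21.8% higher, so the counts among the neighbours lie near the background. Before Begain, Evl, for a regulator of actin filaments, rose by 0.63 and Eml1, for a microtubule-binding protein, by 0.48, while Wdr25, the nearest gene, differed by -0.35. Beyond Dio3 the nearest gene, Ppp2r5c, for a subunit of protein phosphatase 2A, rose by 0.29, and Cinp and Hsp90aa1 differed by -0.44 and -0.38. None of the 20 was 2-fold lower. The difference between the cluster and its neighbours was not itself tested.

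**Figure D2:**
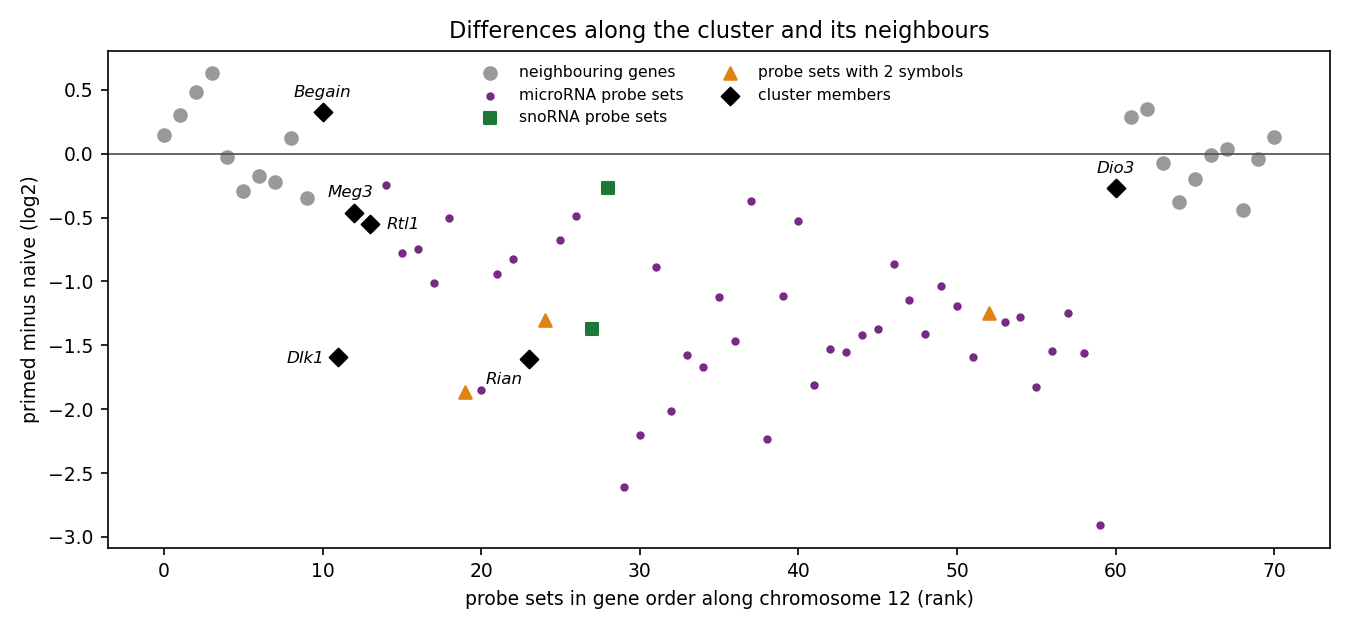
Primed minus naive log2 difference (vertical axis) of probe sets in gene order along chromosome 12 (horizontal axis, rank only), with 10 neighbouring genes on each side in grey. All probe sets annotated to a gene between Dlk1 and Dio3 lie below 0, the lowest at -2.91, whereas neighbours lie between -0.44 and 0.63 and Begain lies at 0.33.

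Imprinted genes of other loci were grouped by the parental chromosome they are known to be expressed from. The arrays do not tell the parental copies apart. Whether each gene is imprinted in these cells, and which copy they express, was not measured. Of 18 measured paternally expressed genes elsewhere, 11 were lower in primed cells, 2 were higher and 5 did not pass, with a median of -0.63. Slc38a4, an amino acid transporter gene, differed by -6.13 with its primed arrays in background, Peg10, a retrotransposon-derived gene of the placenta, by -2.94, and Sfmbt2, for a Polycomb-related protein, by -2.27. Of 12 measured maternally expressed genes elsewhere, 4 were lower, 4 were higher and 4 did not pass, with a median of 0.02. Grb10, for an adaptor of growth factor receptors, rose by 4.68, Cdkn1c, for an inhibitor of the cell cycle, by 1.07, and Slc22a18, a transporter gene, by 0.97. The paternal members of the cluster, at -1.59, -0.55 and -0.27, lay within the range of the paternal genes elsewhere. Its maternal members lay at -0.47 and -1.61, and Rian was below the lowest maternal gene elsewhere, Ascl2 at -0.97. Over all genes the shares were 22.7% lower and 21.8% higher. The counts of both lists are a description, and the lists were put together with earlier results of these data known.

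**Figure D3:**
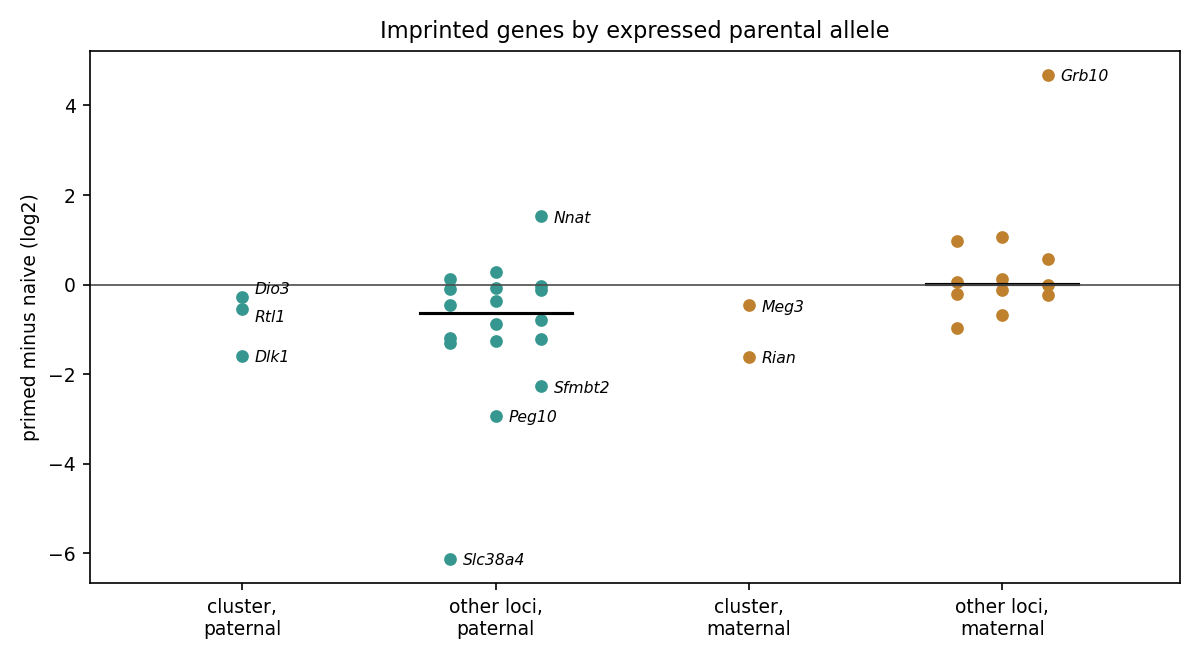
Primed minus naive log2 difference (vertical axis) of imprinted genes, each point a gene, for the paternal members of the cluster beside 18 paternally expressed genes of other loci, and the maternal members beside 12 maternally expressed genes of other loci; lines are medians over the other loci. The 5 cluster genes lie between -1.61 and -0.27, and the other loci run from -6.13 to 4.68.

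Genes for factors that set or protect imprints moved both ways, with 8 of 19 lower in primed cells, 7 higher and 4 not passing. The shares over all genes were 22.7% lower and 21.8% higher. Dnmt3l, for the cofactor of the de novo DNA methyltransferases, differed by -3.19 and Dppa3, for a maternal factor that protects DNA methylation in the zygote, by -2.81, both in background in primed cells. Tet2, for an enzyme that oxidises methylated cytosine, rose by 0.95. Zfp57 itself, which protects imprints after fertilisation, rose by 0.19, and Trim28, for its corepressor, differed by -0.34. Dnmt1, for the maintenance methyltransferase, stood at 11.96 in primed and 11.95 in naive cells (limma adjusted p = 0.908). DNA methylation was not measured on these arrays.

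Around Dlk1, genes of the Notch pathway gave 5 of 18 lower, 7 higher and 6 not passing, with a median of -0.02. Shares over all genes, for this and the other lists here, were 22.7% lower and 21.8% higher. The ligand gene Dll1 rose by 1.30, the ligand gene Jag1 differed by -1.15 and the target gene Hes1 rose by 0.89. Dlk2, the closest relative of Dlk1, differed by -0.30. Around Dio3, of 10 measured genes of thyroid hormone handling 1 was lower, 2 were higher and 7 did not pass, and the other deiodinase genes Dio1 and Dio2 were among 4 that stayed under the background cutoff in primed and in naive cells. Crym, for a protein that binds thyroid hormone in the cytosol, differed by -2.44, and Klf9, a target of the hormone, rose by 0.25. Around Rtl1, of 8 measured genes derived from retrotransposon Gag proteins 5 were lower, 0 were higher and 3 did not pass, with 5 of the 8 in background in both groups. Peg10 (-2.94) and Rtl8c (-1.23) had the largest differences.

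**Figure D4:**
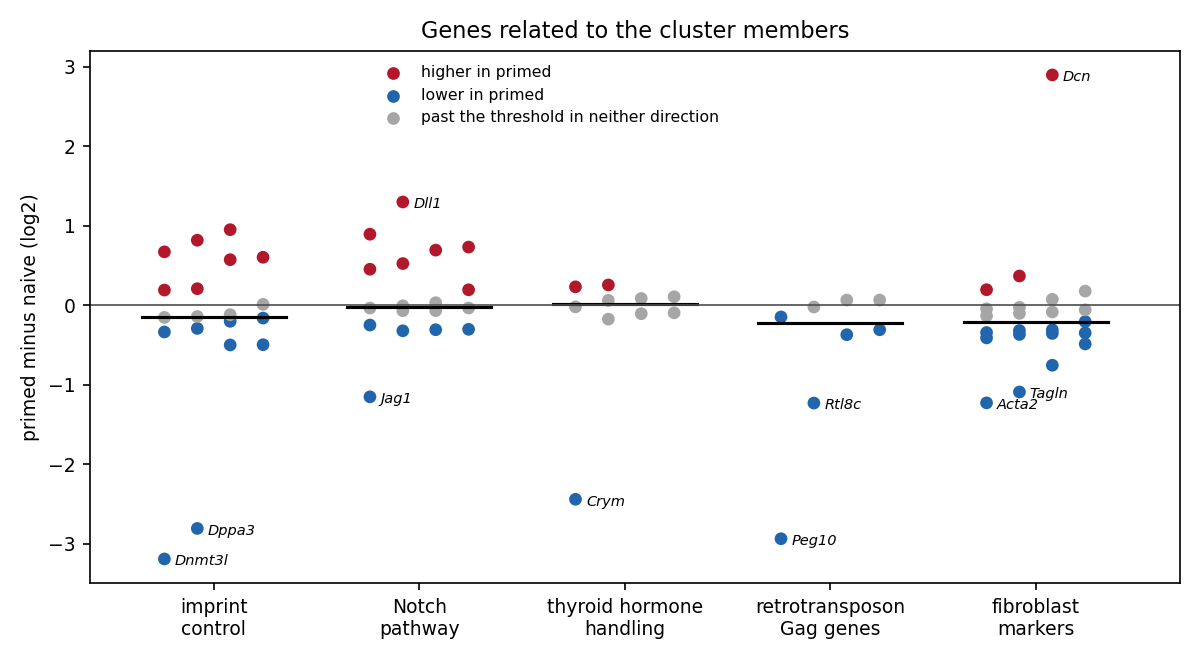
Primed minus naive log2 difference (vertical axis) of genes related to the cluster members, each point a gene, coloured by whether limma's adjusted p passed 0.05 and in which direction; lines are list medians. Imprint control and Notch genes lie on both sides of 0, and fibroblast markers have a median of -0.21 with Dcn at 2.89.

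Embryonic fibroblasts, which can be present as feeder cells, are known to express Dlk1 and Meg3, so their markers are given beside the members. Of 23 fibroblast markers 12 were lower in primed cells, 3 were higher and 8 did not pass, with a median of -0.21, and 5 of the 23 were in background in both groups: Lum, Postn, Prrx1, S100a4 and Fap. Among all genes 22.7% were lower and 21.8% higher. The sum of the linear signals of the 23 was 21966 to 23454 on primed arrays, against 27608 to 28521 on naive arrays. Most of this sum came from the brightest genes in both groups, Sparc, Fn1, Tagln, Acta2 and Mmp2. Of these Fn1 did not pass and the others were lower in primed cells. The sum therefore describes these bright genes and not the 23 markers alike. The lowest differences were those of Acta2 (-1.23) and Tagln (-1.09), genes of contractile filaments, with Col1a1 at -0.76. The 3 that were higher were Dcn (2.89), Pdgfrb (0.37) and Fbln2 (0.19). The imprinted members stood at -1.59 (Dlk1), -1.61 (Rian), -0.55 (Rtl1), -0.47 (Meg3) and -0.27 (Dio3). In bulk RNA fewer cells of a type and less RNA per cell cannot be told apart, and the part of such cells in the difference of the members was not tested.

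The genes most like the members were sought by the Euclidean distance of log2 values over the 6 arrays, each gene centred on its mean. Nearest to Dlk1 were Folr1, for a folate receptor (distance 0.12), Slc40a1, for an iron exporter (0.19), and Ltb, for a lymphotoxin (0.19), while Rian lay at 0.39. Nearest to Rian were Gimap9 (0.20), Prdm1, for a repressor needed by germ cell precursors (0.22), and Mir679 (0.22), which lies downstream of Rian in the cluster. Nearest to Meg3 were Gm24463 (0.08), Tm4sf5 (0.09) and Mir431 (0.10), the last again from the cluster. Of the members, Meg3 lay at 0.40 from Dio3, 0.41 from Rtl1, 1.00 from Begain, 1.41 from Rian and 1.42 from Dlk1. With 6 arrays in 2 groups this measure mainly finds genes with a like difference between the groups.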

How the data were processed

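The deposited table holds 1 column of log2 values per array, made by the authors; per the submitters' processing notes RMA was run in Partek 6.6. Its options and the genome build are not stated in the labels. Dim genes lose part of their difference in RMA, and no detection calls come with the values. Names came from the annotation of the platform in GEO, where 21789 had 1 symbol, 1621 several and 12146 none, and 21698 of the first kind were matched by gene ID to RefSeq (GRCm38.p6), which gave current symbols and gene order. The probe set with the highest mean was taken per gene. The comparison used lmFit and eBayes of limma 3.58.1 (R 4.3.3, two-sided, no covariates) with Benjamini-Hochberg adjustment. This ran over 19938 genes for the members, the neighbours and the lists. It ran over 35556 probe sets for the probe sets between Begain and Dio3 that are no member. The fit was tested on simulated data. Python 3.11.15 made tables and figures. Samples were grouped by the cell type label. Named beyond the members were the 10 nearest genes per side (at most 6), the largest differences of each list and the 3 genes most like Dlk1, Meg3 and Rian, with single small RNAs of the cluster and a few list genes chosen after their values were seen. The members and lists were chosen with earlier results of these data known. Alternatives were other scalings, a filter on dim genes, averaging a gene's probe sets, an intensity trend, the replicate number as a block, a stricter threshold and leaving out each array.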

Additional observations from a re-analysis of the deposited data

How the results depend on the processing

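Dlk1, Meg3, Rian and Rtl1 kept their direction and passed under all 14 alternatives, and Dio3 and Begain under all 13 in which they were tested. The filter, the averaging of probe sets, the intensity trend and the replicate block could not change a member's difference. Nor could the stricter threshold or testing all probe sets separately, so in these only passing was tested. The range was -1.66 to -1.53 for Dlk1, -0.54 to -0.39 for Meg3, -1.69 to -1.52 for Rian, -0.74 to -0.43 for Rtl1, -0.34 to -0.22 for Dio3 and 0.26 to 0.38 for Begain. The highest adjusted p of limma was 0.0386, for Rtl1 with all probe sets tested separately, an alternative chosen after seeing the data. Dropping genes under the 40th percentile of mean level left out Dio3 and Begain, so that 4 members were lower and 0 higher in primed cells. Without each array in turn 5 members were lower and 1 was higher, while 3926 to 4169 of all genes passed as higher and 4007 to 4455 as lower in primed cells. Median centring of each array changed the share of calls that were higher in primed cells to 35.2% (3439 higher, 6325 lower) and quantile normalization to 55.0% (5011 higher, 4092 lower), against 49.0% as deposited. Equal replicate numbers did not pair the arrays (correlations of deviations -0.11, 0.00 and -0.02, none the best for its array). With the replicate block 4172 genes passed as higher and 4344 as lower in primed cells, and the same number of members passed in each direction. Primed Dio3 lay under the background cutoff on all 3 arrays, so its difference has little signal behind it.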
